A study of Mus musculus with 18 samples.

Results

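Sik1, Pim1, Stk40, Lats2 and Trib1 are 5 of the 14807 genes measured by a singly named probe set. They encode the protein kinases Sik1, Pim1 and Lats2, the pseudokinase Trib1 and its relative Stk40. They were chosen by their measured responses in these same arrays to sleep loss or to stimulation, so their acute rises are given as a description, with no test. The rule took each probe set that the platform annotation gives exactly 1 of these symbols. It found all 5, each with 1 probe set: Sik1 (Entrez 17691), Pim1 (Entrez 18712), Stk40 (Entrez 74178), Lats2 (Entrez 50523) and Trib1 (Entrez 211770).

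RNA was measured on 18 Affymetrix arrays in 6 groups of 3. The cortex arrays came from male C57BL/6J mice, 27 in all, and each array held RNA pooled from 3 mice. They covered undisturbed home-cage controls, mice sampled straight after 6 h of sleep deprivation, and mice that recovered after the same deprivation and were sampled on the next day. The source labels give that recovery as 18 h and the treatment protocol gives it as 24 h. The culture arrays came from 9 dishes of 3 primary cortical cultures, prepared from C57BL/6J embryos or newborn pups. Dishes were sampled 3 h after water (sham), 3 h after a neurotransmitter excitatory cocktail, or 24 h after that cocktail. No group carries a transgene, the age of the cortex mice and the cocktail's dose are not used here, and the RNA kit differed between cortex and culture. A pool hides the spread between mice, so p-values measure the spread between pools or dishes alone.

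Kinases can be controlled by how much of them is made as well as by phosphorylation, and several kinase genes are transcribed within hours of neuronal firing. Sik1, a salt-inducible kinase, is made after CREB-dependent transcription and phosphorylates the CRTC coactivators of CREB and class IIa histone deacetylases, which feeds back on the same transcription. Pim1 is a serine/threonine kinase that is active as soon as it is translated and is induced by cytokines through STAT factors. Trib1 is a pseudokinase: it has a kinase fold with little or no catalytic activity and brings substrates such as C/EBP factors to the ubiquitin ligase COP1. Stk40 is a relative of the Tribbles proteins and also binds COP1. Lats2 is the kinase of the Hippo pathway that phosphorylates the coactivators YAP and TAZ and so keeps them out of the nucleus.

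RefSeq promoter windows (build GRCm38.p6), 250 bases before to 50 after a start site, existed for 3 of the 5 genes, with 5 windows in all. The first window of Lats2 and the window of Stk40 are shown because they held the shorter form of the cyclic AMP response element, the DNA site to which CREB binds, and the first of Pim1 because it held none of the motifs searched. The second windows of Lats2 and Pim1, at other start sites, held none either and are not shown. Capitals mark that element, TGACG, or its reverse complement CGTCA, in sequences printed 5′ to 3′ along the gene's strand. The Lats2 window shown lies at chr14:57746074-57746373 on the minus strand, the Stk40 window at chr4:126103707-126104006 on the plus strand, and the Pim1 window at chr17:29490535-29490834 on the plus strand.
Lats2: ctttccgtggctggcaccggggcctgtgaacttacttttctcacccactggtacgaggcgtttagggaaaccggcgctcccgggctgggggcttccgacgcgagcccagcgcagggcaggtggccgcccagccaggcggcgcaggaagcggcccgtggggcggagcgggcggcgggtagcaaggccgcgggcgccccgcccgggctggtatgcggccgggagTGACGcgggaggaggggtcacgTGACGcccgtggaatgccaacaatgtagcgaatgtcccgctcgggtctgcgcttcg
Stk40: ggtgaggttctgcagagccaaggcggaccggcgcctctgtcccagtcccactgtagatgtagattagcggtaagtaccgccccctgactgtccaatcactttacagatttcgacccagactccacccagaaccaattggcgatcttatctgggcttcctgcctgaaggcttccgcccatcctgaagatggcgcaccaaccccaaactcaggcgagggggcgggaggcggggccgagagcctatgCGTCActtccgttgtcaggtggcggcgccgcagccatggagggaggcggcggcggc
Pim1: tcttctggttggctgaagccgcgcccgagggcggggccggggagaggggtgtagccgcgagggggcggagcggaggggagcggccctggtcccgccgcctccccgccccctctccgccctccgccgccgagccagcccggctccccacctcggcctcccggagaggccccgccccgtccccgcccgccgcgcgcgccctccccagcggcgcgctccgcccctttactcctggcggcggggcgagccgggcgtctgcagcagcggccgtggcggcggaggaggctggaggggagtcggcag

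The Lats2 window shown held TGACG at positions -28 to -24 and -6 to -2, counted from the start site. The Stk40 window held it on the opposite strand at positions -6 to -2. Of all 32851 promoter windows of the same length, 20.8% held this element on either strand, so it is common. The full element TGACGTCA (1.79% of windows), the AP-1 site TGANTCA (7.81%), the TATA box TATAAA (13.6%) and the CArG box, the serum response element (1.63%), were searched on both strands and had no match in the 5 windows. TGACG lies within TGACGTCA, so these searches overlap. The printed Pim1 window was 81.3% G or C, Lats2 71.7% and Stk40 62.7%, against a median of 52.7% over all windows. The second windows lay below it, at 49.0% for Pim1 and 42.7% for Lats2.

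Sik1 was higher after both treatments. Its log2 signal on the 3 control cortex arrays was 7.48, 7.48 and 7.31, after sleep deprivation 8.09, 7.95 and 8.10, and in recovered cortex 7.61, 7.65 and 7.65. All deprived pools lay above all control pools, and the recovered pools lay between them without touching either group. The mean was 7.42 ± 0.10 in control and 8.05 ± 0.09 after deprivation (SD, n = 3), a difference of 0.62 ± 0.06 (log2, standard error of the limma fit) or 1.54-fold. In culture the sham dishes gave 9.35, 9.32 and 8.65, the dishes 3 h after the cocktail 11.04, 10.94 and 10.87, and the dishes at 24 h 9.80, 9.47 and 10.37. The stimulated dishes agreed closely while sham and 24 h dishes were spread widely. The mean was 9.10 ± 0.40 in sham and 10.95 ± 0.09 at 3 h, a difference of 1.85 ± 0.25 or 3.60-fold.

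**Figure D1:**
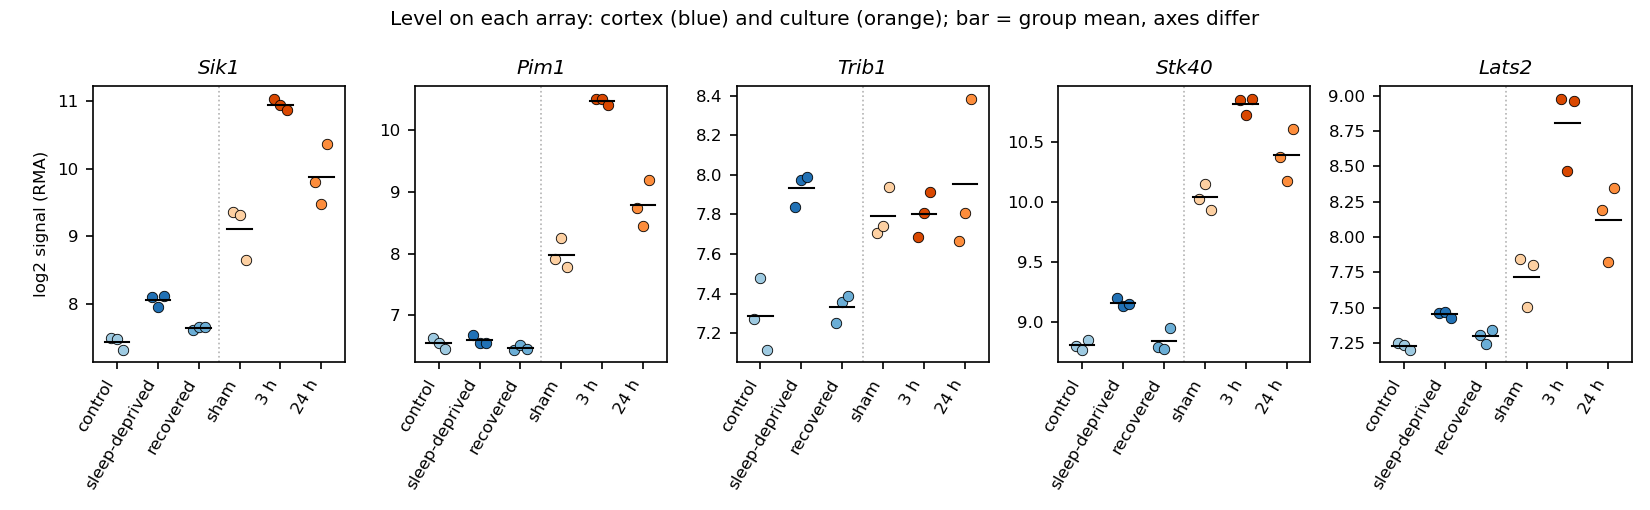
Deposited log2 signal (vertical axes, which differ between panels) of the 5 genes on each of the 18 arrays, by group. Points are arrays, a pool of 3 mice or a dish, and bars are means of 3; Sik1, Stk40 and Lats2 are high in both treated groups, Pim1 in stimulated culture and Trib1 in sleep-deprived cortex.

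Pim1 had the largest difference of the 5 in culture and none beyond the spread of the pools in cortex. Its 3 sham dishes gave 7.91, 8.25 and 7.78, the dishes at 3 h 10.51, 10.51 and 10.41, and those at 24 h 8.74, 8.45 and 9.20. The culture groups did not overlap, and the 24 h dishes lay between sham and 3 h. The difference at 3 h was 2.49 ± 0.19, or 5.63-fold, and it stood at rank 10 of 14807 genes ordered by their rise. In cortex the control pools gave 6.63, 6.56 and 6.46, the deprived pools 6.68, 6.56 and 6.56, and the recovered pools 6.44, 6.52 and 6.46. Control pools overlapped both other groups, recovered pools lay just below deprived ones by a gap of 0.043, and the difference after deprivation was 0.05 ± 0.05, at rank 3824.

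Trib1 showed the opposite arrangement. In cortex the control pools gave 7.27, 7.48 and 7.12, the deprived pools 7.84, 7.97 and 7.99, and the recovered pools 7.25, 7.36 and 7.39. Deprived pools lay above both other groups, which overlapped each other. The difference after deprivation was 0.64 ± 0.09, or 1.56-fold, at rank 33 of all genes and close to that of Sik1 at rank 38. In culture the sham dishes gave 7.71, 7.74 and 7.94, the 3 h dishes 7.69, 7.81 and 7.92, and the 24 h dishes 7.67, 7.81 and 8.39. All 3 culture groups overlapped, and the difference at 3 h was 0.0088 ± 0.18, at rank 5338.

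Stk40, the Tribbles relative, was higher after both treatments, unlike Trib1. Control pools gave 8.80, 8.77 and 8.85, deprived pools 9.20, 9.13 and 9.15, and recovered pools 8.79, 8.77 and 8.95. The deprived pools lay above both other groups, which overlapped, and the difference from control was 0.35 ± 0.05, or 1.28-fold. In culture the sham dishes gave 10.03, 10.16 and 9.94, the 3 h dishes 10.85, 10.73 and 10.87, and the 24 h dishes 10.38, 10.18 and 10.62. The difference at 3 h was 0.78 ± 0.11, or 1.71-fold, and the 24 h dishes lay between the other groups, separated from sham by a gap of 0.026.

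Lats2 had the smallest difference in cortex among the 4 genes that stood apart there. Its control pools gave 7.25, 7.23 and 7.20, the deprived pools 7.47, 7.47 and 7.43, and the recovered pools 7.31, 7.24 and 7.34. The deprived pools lay above both other groups, and the difference from control was 0.23 ± 0.04, or 1.17-fold. In culture the sham dishes gave 7.85, 7.51 and 7.80, the 3 h dishes 8.98, 8.47 and 8.96, and the 24 h dishes 8.19, 7.83 and 8.35. The dishes numbered 2 were the lowest in all 3 groups, and sham and 24 h dishes overlapped. The difference at 3 h was 1.08 ± 0.18, or 2.12-fold.

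The members' acute differences thus fell into 3 arrangements. Sik1, Stk40 and Lats2 were higher in both systems, Pim1 in culture and Trib1 in cortex. The name activity-induced thus did not describe Trib1 in culture at 3 h, nor Pim1 in cortex after sleep loss, where their groups overlapped. All 3 deprived pools exceeded all control pools for 4 of the 5 genes, against 7.7% of all genes, and limma called 1.63% of genes changed in either direction at an adjusted p under 0.05. All 3 stimulated dishes exceeded all sham dishes for 4 of the 5, against 6.9% of all genes, with 1.45% called. Since these contrasts chose the genes, nothing is read from those counts. The values are whole-tissue and whole-dish RNA, in which more cells expressing a gene and more RNA per cell cannot be told apart.

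**Figure D2:**
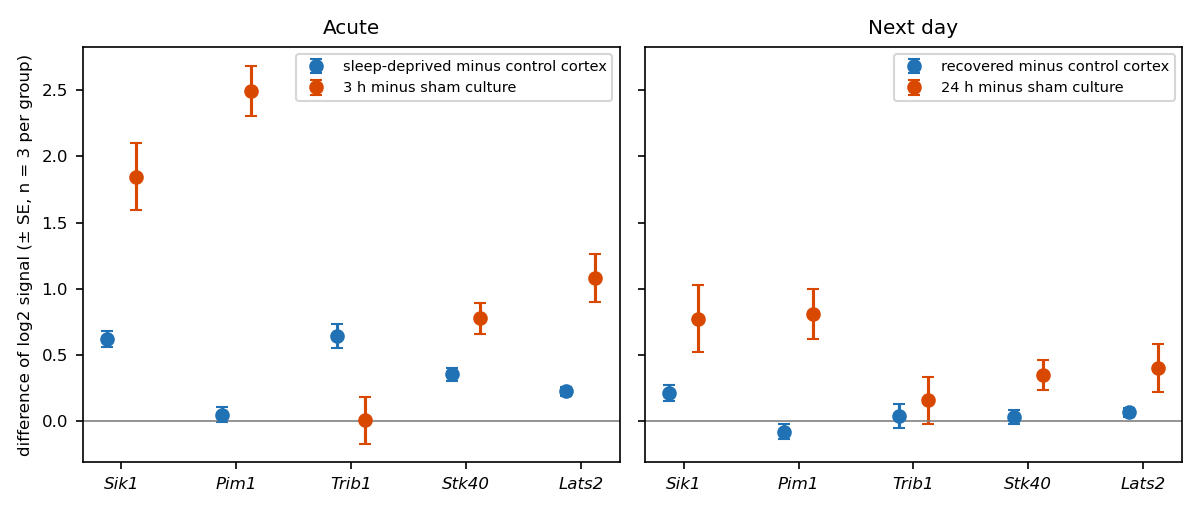
Difference in log2 signal of the 5 genes straight after treatment (sleep-deprived minus control cortex, 3 h minus sham culture) and on the next day (recovered minus control cortex, 24 h minus sham culture). Blue marks are cortex, orange marks culture, and bars are standard errors of the limma fit with 3 arrays per group; the acute culture difference is largest for Pim1 (2.49) and near 0 for Trib1 (0.0088).

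Levels that were higher after treatment moved back in both systems. Pim1 in cortex and Trib1 in culture had not stood apart from control or sham. In recovered cortex all 5 genes had every pool below every deprived pool, against 7.9% of all genes, with differences of -0.60 ± 0.09 for Trib1, -0.41 ± 0.06 for Sik1, -0.32 ± 0.05 for Stk40, -0.16 ± 0.04 for Lats2 and -0.13 ± 0.05 for Pim1. From 3 h to 24 h in culture the difference was -1.68 ± 0.19 for Pim1, -1.07 ± 0.25 for Sik1, -0.68 ± 0.18 for Lats2 and -0.43 ± 0.11 for Stk40, each with all dishes lower, against 5.3% of all genes. Trib1 differed by 0.15 ± 0.18 with overlapping dishes. These contrasts reuse the deprived and 3 h arrays that chose the genes and carry no test.

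Whether the genes still differed on the next day was tested, with the caveat that the control and sham arrays are shared with the contrasts that chose the genes. In recovered against control cortex, 0 of the 5 passed, with an adjusted p of 1 for each by limma, and 0% of all genes were called. At an unadjusted p under 0.05 there were 427 genes of 14807, among them Sik1. Its recovered pools were all above its control pools, by 0.21 ± 0.06 (95% interval 0.072 to 0.35, limma unadjusted p = 0.0082, adjusted p = 1). For 3.5% of all genes the recovered pools were likewise all higher. The interval of the difference ran from -0.17 to 0.25 for Trib1, from -0.089 to 0.15 for Stk40, from -0.013 to 0.15 for Lats2 and from -0.20 to 0.049 for Pim1.

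In cultures 24 h after the cocktail against sham, 0 of the 5 passed and 0% of all genes were called by limma, while 877 genes, among them Pim1, Sik1 and Stk40, had an unadjusted p under 0.05. Pim1 differed by 0.81 ± 0.19 (95% interval 0.38 to 1.25, limma adjusted p = 0.66), Sik1 by 0.78 ± 0.25 (0.20 to 1.35, adjusted p = 0.81) and Stk40 by 0.35 ± 0.11 (0.087 to 0.61, adjusted p = 0.81). For these 3 genes all 24 h dishes lay above all sham dishes, which held for 3.4% of all genes. Lats2 differed by 0.40 ± 0.18 (-0.019 to 0.82, adjusted p = 0.84) and Trib1 by 0.16 ± 0.18 (-0.25 to 0.56, adjusted p = 0.96), with overlapping groups. With array weights, which count arrays with larger residuals less and called 6.47% of all genes, adjusted p was 0.019 for Pim1, 0.028 for Stk40, 0.036 for Sik1 and 0.047 for Lats2. With all 18 arrays in 1 model, which called 0.432% of genes, Pim1 passed (adjusted p = 0.024). The sham dishes were sampled at 3 h, so the time since handling differed too, and its part cannot be told apart.

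The dish numbered 3 at 24 h was the highest of its group for all 5 genes. The array as a whole also stood apart, with a median log2 signal of 7.09, the highest of the 18, against 6.94 and 6.87 in the other 24 h dishes. Over all genes, dishes with the same number deviated together, so differences were also taken within a number. Sik1, Pim1 and Stk40 did not follow this between sham and 24 h. Their dish numbered 3 was the lowest in sham (8.65, 7.78 and 9.94) and the highest at 24 h (10.37, 9.20 and 10.62). At 24 h the within-number differences of Sik1 were 0.45, 0.15 and 1.73 for numbers 1 to 3, and those of Pim1 0.83, 0.20 and 1.41. Stk40 gave 0.35, 0.026 and 0.68, and Lats2 0.34, 0.32 and 0.54. Every one of these was above 0, and those of Sik1, Pim1 and Stk40 were smallest for number 2 and largest for number 3. At 3 h they were tighter: 1.69, 1.62 and 2.23 for Sik1, 2.60, 2.26 and 2.62 for Pim1, 0.82, 0.58 and 0.93 for Stk40, and 1.13, 0.96 and 1.16 for Lats2. Trib1 gave -0.017, 0.065 and -0.021 at 3 h, values of both signs near 0, and -0.040, 0.065 and 0.45 at 24 h.

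**Figure D3:**
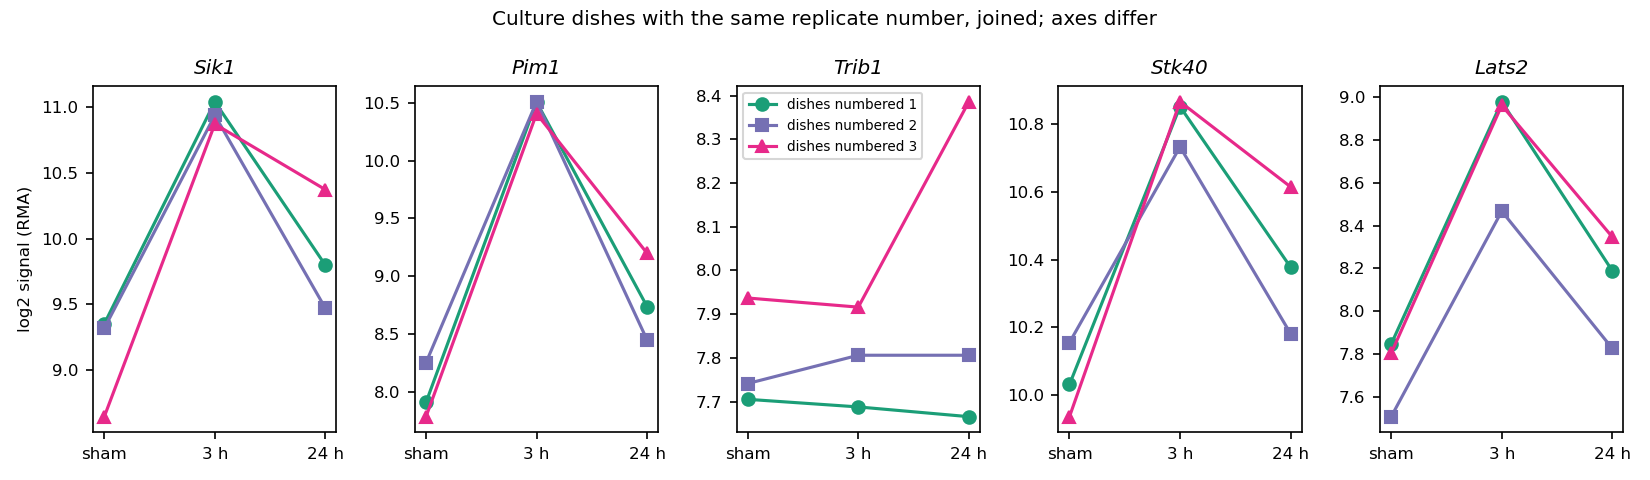
Deposited log2 signal of the 5 genes in the 9 culture dishes, with sham, 3 h and 24 h dishes of the same replicate number joined by a line. The lines of Sik1, Pim1, Stk40 and Lats2 peak at 3 h in all 3 numbers, and the 24 h dish numbered 3 is the highest 24 h dish in every panel.

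Without the 24 h dish numbered 3, the 24 h difference was 0.61 for Pim1, 0.53 for Sik1, 0.29 for Lats2, 0.24 for Stk40 and -0.059 for Trib1, with none called. Astrocyte markers were also high in that dish, as in the dishes numbered 3 of the other culture groups. The mean log2 signal of the 6 measured of 8 listed was 11.07 there, against 10.29 and 9.98 in the other 24 h dishes. For numbers 1 to 3 it was 9.94, 9.86 and 10.53 in sham and 9.76, 9.78 and 10.19 at 3 h. None of the 6 was called at 24 h, and RMA values have no 0 from which to call a marker absent. The mean of the 4 measured markers of dividing cells was 8.31 in that dish, against 7.83 and 7.84, and that of the 6 interneuron markers 10.16, against 9.52 and 9.51. The interneuron mean was also highest in the sham dish numbered 3 (9.78, against 9.40 and 9.41). Neuron markers (12.08, against 12.24 and 12.19) and immature neuron markers (9.18, against 9.37 and 9.35) were lowest in the 24 h dish numbered 3. None of these was called at 24 h either. The part of these cells, and of the array's higher median, in the 24 h values was not tested.

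The next-day differences were set against each other in 1 model of all 18 arrays, a comparison added after the values were seen. The 24 h culture difference exceeded the recovered cortex difference by 0.89 ± 0.21 for Pim1 (limma adjusted p = 0.35), 0.56 ± 0.27 for Sik1 (0.85), 0.33 ± 0.20 for Lats2 (0.91), 0.32 ± 0.13 for Stk40 (0.76) and 0.11 ± 0.21 for Trib1 (0.98). The test called 0 of the 5 and 0% of all genes, with 871 genes, Pim1 and Stk40 among them, at an unadjusted p under 0.05.

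At rest, all 5 genes gave more signal in sham culture than in control cortex, and limma called all 5, but 76.2% of all genes were called there and the median gene was higher by 0.50. Both groups' arrays had also served in the contrasts that chose the genes. The differences were 1.68 ± 0.19 for Sik1 (adjusted p = 1.1e-06), 1.43 ± 0.15 for Pim1 (2.9e-07), 1.23 ± 0.09 for Stk40 (7.1e-09), 0.51 ± 0.15 for Trib1 (0.0056) and 0.49 ± 0.14 for Lats2 (0.0047). Relative to the median gene, Sik1 was higher by 1.18, Pim1 by 0.93 and Stk40 by 0.74, while Trib1 (0.0095) and Lats2 (-0.0072) moved with the bulk of genes. After quantile normalization of all arrays, under which the median gene was higher by 0.23, Sik1 (1.12 ± 0.17, limma adjusted p = 2.5e-05), Pim1 (1.28 ± 0.11, 5.4e-08) and Stk40 (0.36 ± 0.08, 5.7e-04) passed. Trib1 (0.19 ± 0.12, 0.16) and Lats2 (0.21 ± 0.10, 0.085) did not. Under that scaling 70.6% of all genes were called, and relative to the median gene Pim1 was higher by 1.04, Sik1 by 0.89 and Stk40 by 0.13. The kit, the age of the cells and the cell mixture differ between the systems and cannot be told apart from the system itself.

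In the deposited values the order of the 6 groups differed by gene. For Sik1 it ran from control through recovered and deprived cortex to sham, 24 h and 3 h culture, with no overlap between neighbours. Stk40 kept that order, except that control and recovered cortex overlapped. Lats2 did so with overlaps between control and recovered cortex and between sham and 24 h culture. For Pim1 all cortex pools lay below sham, 24 h and 3 h culture, and control overlapped both recovered and deprived cortex. For Trib1 the deprived cortex pools lay within the range of the culture dishes, above control and recovered cortex. The place of cortex against culture depended on the scaling. After quantile normalization deprived minus control cortex was 0.40 for Stk40, 0.32 for Lats2 and 0.84 for Trib1. Sham culture minus control cortex was then 0.36, 0.21 and 0.19, so deprived cortex averaged above sham culture for these genes.

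Markers were compared with the members' groups. Neuron markers (10 of 10 measured) averaged 11.95 to 12.01 on cortex arrays and 12.03 to 12.36 in culture, microglia markers (7 of 7) 7.49 to 7.67 and 5.19 to 5.34, and endothelial markers (7 of 7) lay at 4.47 to 4.59 in culture. In sham culture against control cortex, all 4 measured markers of dividing cells (median 3.63), oligodendrocyte precursors (4 of 4, median 2.48) and immature neurons (4 of 4, median 1.85) were called higher. All 7 of 7 oligodendrocyte markers were called lower (median -3.95). Of all 14807 genes, 9028 were called higher and 2259 lower in that contrast, with a median of 0.50. Beside the culture differences, the neuron list averaged 12.27 to 12.36 at 3 h against 12.03 to 12.18 in sham. There 1 of the 10, the neurofilament gene Nefl, rose (1.08 ± 0.13, limma adjusted p = 0.014). The median difference of the 10 was only 0.040, against -0.030 over all genes. The 6 interneuron markers averaged 9.59, 9.75 and 10.00 in dishes 1 to 3 at 3 h against 9.40, 9.41 and 9.78 in sham. The 6 measured astrocyte markers averaged 9.76, 9.78 and 10.19 against 9.94, 9.86 and 10.53. The interneuron list was thus higher and the astrocyte list lower in every numbered pair, with medians of 0.24 and -0.20 and 0 called in either. Of 8 pericyte and fibroblast markers, Pdgfrb fell by 0.89 ± 0.10 (adjusted p = 0.011), while the median difference of the 8 was 0.013. Beside the cortex differences, oligodendrocyte markers (7 of 8 measured) averaged 9.52 to 9.56 after deprivation against 9.65 to 9.73 in control. Only 2 of them were called lower, Opalin by -0.84 and Aspa by -0.33. The median difference of the 7 was -0.13, against -0.0027 over all genes. Endothelial markers averaged 7.85 to 7.93 against 7.96 to 8.10, with a median difference of -0.028 and 0 of 7 called. Immature neuron markers (4 of 5 measured) averaged 7.30 to 7.34 against 7.41 to 7.44, and Dcx was called lower by -0.62. The median difference of the 4 was 0.019, so their lower average was not a shift of the whole list. The part of these shifts in the members' values was not tested.

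The closest relatives were examined next, in which calls are tests over all genes. Of 7 listed, 6 were measured, and Lats1 had no single probe set. After sleep deprivation 1 of the 6 rose and 0 fell, with a median of 0.078 against -0.0027 over all genes. It was Trib2 (0.37 ± 0.05, limma adjusted p = 0.020), a pseudokinase like Trib1. In stimulated culture Trib2 differed by -0.28 ± 0.25 (adjusted p = 0.84), and Trib3 by 0.0031 ± 0.06 after deprivation and 0.21 ± 0.11 in culture, neither called. In culture 2 of the 6 rose and 0 fell, with a median of 0.44 against -0.030. They were Sik2 (1.43 ± 0.19, adjusted p = 0.020), which shares substrates with Sik1, and Pim3 (0.75 ± 0.07, adjusted p = 0.0062). Sik2 differed by 0.29 ± 0.06 after deprivation (adjusted p = 0.053) and Pim3 by 0.079 ± 0.04 (0.46). Sik3, in which a splice mutation raises sleep need in mice, differed by 0.67 ± 0.17 in culture (adjusted p = 0.11) and 0.077 ± 0.04 after deprivation (0.46). Without any 1 of the 6 compared culture arrays Pim3 passed and Sik2 did not. Trib2 was lost without any 1 deprived pool or control pool 2, and in the fit with a replicate block. It was also lost with only the 6 compared cortex arrays and with all 18 arrays in 1 model. Other settings added calls. Sik2 was called higher in cortex with quantile normalization, without the lowest genes, with array weights and with a variance trend. Sik3 was called higher in culture with array weights, with only the 6 compared arrays and with all 18 arrays.

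**Figure D4:**
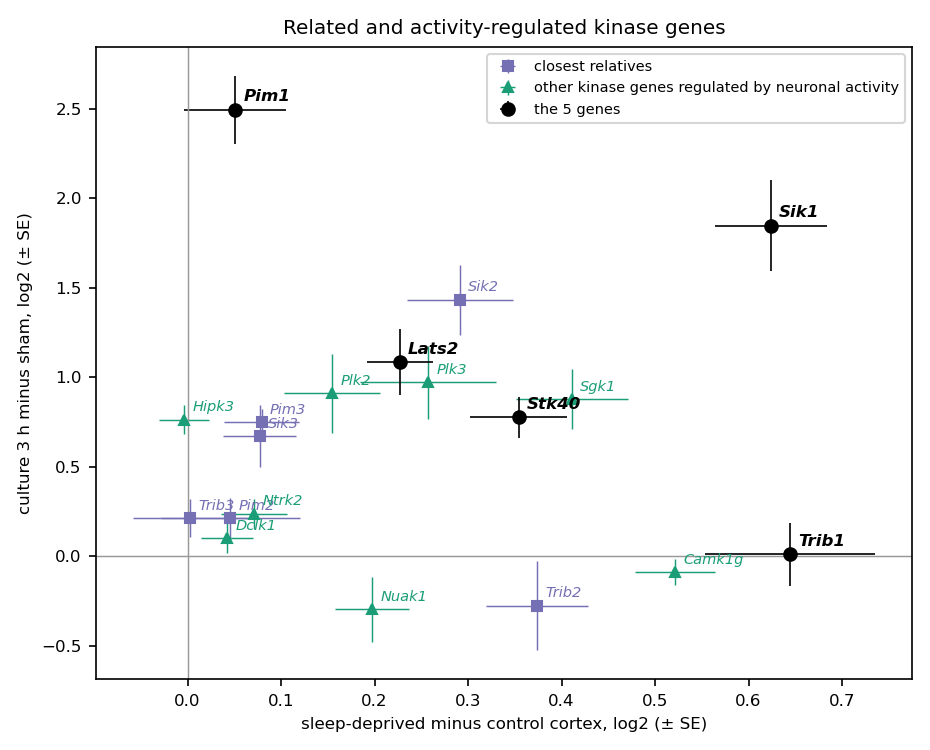
Difference of sleep-deprived minus control cortex (horizontal, log2) against 3 h stimulated minus sham culture (vertical, log2) for the 5 genes (black), their closest relatives (purple squares) and other activity-regulated kinase genes (green triangles), with standard errors of the limma fit. Trib1, Trib2 and Camk1g lie to the right near or below 0 on the vertical axis, and Pim1 lies high near 0 on the horizontal axis.

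Other kinase genes known to respond to neuronal activity were also described, 8 of 9 measured, and Acvr1c had no single probe set. After deprivation 2 rose and 0 fell, with a median of 0.18: the calmodulin-dependent kinase gene Camk1g (0.52 ± 0.04, limma adjusted p = 0.0019) and the glucocorticoid-regulated kinase gene Sgk1 (0.41 ± 0.06, adjusted p = 0.020). In culture 1 rose and 0 fell, with a median of 0.50: Hipk3, a homeodomain-interacting kinase (0.76 ± 0.08, adjusted p = 0.011). Hipk3 differed by -0.0033 ± 0.03 in cortex and Camk1g by -0.090 ± 0.07 in culture, neither called. Hipk3 was lost without sham dish 1 or 3. Among the fits without 1 compared array, Sgk1 in cortex was kept only without control pool 3. With the replicate block in culture, which pairs dishes of the same number and called 2.42% of all genes, the polo-like kinase genes Plk2 (0.91 ± 0.13, adjusted p = 0.031) and Plk3 (0.97 ± 0.15, adjusted p = 0.034) and Sgk1 (0.88 ± 0.10, adjusted p = 0.017) also passed. Without it their adjusted p was 0.099, 0.066 and 0.051.

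Genes around Sik1, the upstream LKB1 complex, the CRTC coactivators, class IIa histone deacetylases and cyclic AMP signalling, were measured for 18 of 19. After deprivation 0 were called, with a median of -0.014, and those with the smallest p were Hdac9 (-0.25 ± 0.05, adjusted p = 0.062) and Crem (0.24 ± 0.07, adjusted p = 0.14). In culture 1 rose and 0 fell, with a median of 0.029. It was Hdac5 (0.68 ± 0.11, limma adjusted p = 0.028), a class IIa deacetylase that salt-inducible kinases phosphorylate, and it was lost without any 1 compared array. Creb1 differed by -0.53 ± 0.10 (adjusted p = 0.056) and Crem by 1.34 ± 0.38 (adjusted p = 0.14). With array weights, with only the 6 compared arrays and with all 18 arrays, Crem was called higher and Creb1 lower.

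Among 18 cytokine receptor, STAT and substrate genes around Pim1, 1 rose after deprivation and the same gene rose in culture, with 0 falls and medians of 0.0031 and 0.054. It was Cdkn1a, the cell cycle inhibitor p21 and a substrate of Pim1 as a protein (0.87 ± 0.07, limma adjusted p = 0.0017, and 0.95 ± 0.12, adjusted p = 0.015). The culture call was kept only without the 3 h dish numbered 2, among fits without 1 compared array. The cytokine-signalling genes Jak2 and Stat3, upstream of Pim1, differed in culture by 0.046 ± 0.10 and 0.30 ± 0.20, neither called.

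Of the Hippo genes around Lats2, 16 of 20 were measured and 0 were called in either contrast, with medians of 9.1e-04 and -0.040. Frmd6 had the smallest p of the list in culture (1.38 ± 0.54, limma adjusted p = 0.32). It was called there with array weights and with only the 6 compared arrays. The coactivator gene Yap1 differed by -0.012 ± 0.03 after deprivation and -0.066 ± 0.24 in culture. Of 11 targets of YAP and TAZ, 10 were measured and 0 were called, with medians of 0.030 and 0.056. The target Ccn1, which encodes a matrix protein, differed by 2.43 ± 0.53 in culture (limma adjusted p = 0.074), and with the replicate block it passed (2.43 ± 0.35, adjusted p = 0.029). Of the partners and substrates of Tribbles proteins, 11 of 13 were measured and 0 were called, with medians of -0.0055 and -0.073. The C/EBP gene Cebpb differed by 0.54 ± 0.12 in culture (adjusted p = 0.083) and passed with the replicate block (adjusted p = 0.0497). In recovered cortex and at 24 h, 0 genes of any of these lists were called.

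For each gene the 3 most similar genes were named by the lower of its Pearson correlations over the 9 cortex and the 9 culture arrays. Arrays of a group share their treatment, so where groups stood apart these values mostly follow the group means. Groups overlapped for Trib1 in culture and for Pim1 in cortex. Single arrays can weigh more there, such as the 24 h dish numbered 3 for Trib1 (8.39). All these values are a description. For Sik1 they were Per1 (0.957), Gpr3 (0.937) and Fosl2 (0.930), and for Lats2 Per1 (0.961), Dusp6 (0.952) and Tiparp (0.944). Per1 is a clock gene that CREB also drives, and it differed by 0.39 ± 0.04 after deprivation and 1.58 ± 0.22 at 3 h. For Stk40 they were Zhx2 (0.945), Cdkn1a (0.935) and Nr4a3 (0.933). The closest genes to Trib1 were Lman2 (0.941), a cargo receptor of the secretory pathway, Sdf2l1 (0.929), an endoplasmic reticulum chaperone component, and Nepro (0.888). Like Trib1, Sdf2l1 was higher after deprivation (0.82 ± 0.07) and differed by 0.083 ± 0.31 at 3 h. Pim1 had lower best values, with Taf13 (0.790), Rgcc (0.767) and Atf3 (0.767). Atf3, a stress-induced transcription factor gene, differed by 3.94 ± 0.47 at 3 h and 0.032 ± 0.07 after deprivation.

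For scale, the activity-regulated genes Arc and Nr4a1 were higher after deprivation by 1.56 ± 0.05 and 0.99 ± 0.10, and at 3 h in culture by 1.41 ± 0.25 and 2.91 ± 0.41. Fos differed by 0.58 ± 0.12 after deprivation and 3.70 ± 0.54 at 3 h. The differences of Sik1 and Trib1 after deprivation were thus of the size of that of Fos, and that of Pim1 at 3 h lay between those of Arc and Nr4a1.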

How the data were processed

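Gene expression was measured on 18 arrays, 9 of cortex and 9 of culture. Values in the deposited table are log2 signals from RMA, a method that corrects background, normalizes arrays and summarises probes, run by the authors per the submitters' processing notes. For RMA's version, its settings, and joint or separate normalization of the systems: not given in the sources used here. Array medians lay at 6.88 to 6.97 in cortex and 6.87 to 7.09 in culture. The SD across probe sets was 2.29 to 2.31 and 2.77 to 2.80, so the systems do not share a distribution and each was fitted on its own. Precision is limited by the number of arrays.

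Of 23238 probe sets, 14939 had 1 gene symbol, 989 several and 7310 none. Of the singly named, 14884 matched the RefSeq table (GRCm38.p6, used for names) by Entrez ID, with 0 symbols changed. For each of 131 genes with several probe sets the one with the highest mean was kept. R 4.3.3 ran limma 3.58.1, whose lmFit gave the differences and whose eBayes moderated their errors. Two-sided p-values were adjusted over 14807 genes by Benjamini-Hochberg, with a threshold of 0.05. "Rose", "fell" or "called" means past it, except for the 5 genes in the contrasts that chose them. Sham culture against control cortex used all 18 arrays in 1 model. The procedure was tested on simulated data. The 5 genes, the lists and the tests were chosen with earlier results of these data known. The text names of each list the called genes and otherwise some of the 3 with the smallest p, and, chosen for their role after their values were seen, Stat3, Trib3 and Yap1. It names the 3 most similar genes of each member.

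Replicate numbers come from the labels. Over all genes, same-numbered culture arrays deviated together (r = 0.202 to 0.552 over 9 pairs, against -0.358 to 0.118 over 18 others). The labels speak of 9 dishes of 3 cultures, so the within-number differences and the replicate block took same-numbered dishes as paired. The main culture fits did not use this pairing. Cortex pools were not taken as paired (r = -0.102 to 0.101). Alternatives were quantile normalization, leaving out the 30% of genes with the lowest mean, array weights, a variance trend, a replicate block, fits on other sets of arrays, averaged probe sets and leaving out each array.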

Additional observations from a re-analysis of the deposited data

How the results depend on the processing

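In recovered against control cortex, 0 of the 5 genes were called under each of 14 alternatives. In 24 h against sham culture 4 were called with array weights, 1 with all 18 arrays in 1 model, and 0 otherwise. The fit with the paired replicate block thus called 0 of the 5. Lats2 differed there by 0.40 ± 0.07 (limma adjusted p = 0.22), against a standard error of 0.18 in the main fit without pairing. The standard error also fell for Trib1, to 0.11 from 0.18. It rose with pairing for Sik1 (0.276 against 0.252), Pim1 (0.210 against 0.190) and Stk40 (0.119 against 0.115). In sham culture against control cortex 3 rather than 5 were called after quantile normalization. Trib1 had no settled sign in culture: leaving out 1 array gave -0.048 to 0.080 at 3 h against sham and -0.068 to 0.29 at 24 h against 3 h, and array weights gave -0.10 for the latter. No sign of the other 4 genes turned in the contrasts that chose them. Quantile normalization raised the differences after deprivation to 0.84 (Trib1), 0.79 (Sik1), 0.40 (Stk40) and 0.32 (Lats2).

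Counts over all genes moved more. After deprivation, 241 genes were called, against 811 with array weights, 140 with the replicate block (the cortex pools share a number alone), 94 from the 6 compared arrays, 31 from all 18, and 72 to 182 without 1 array. At 3 h, 215 became 910 with weights, 358 with the block and 1170 from all 18, and 18 to 72 without 1 array. At 24 h, 0 became 958 with weights and 64 from all 18, and 0 to 1 without 1 array. In recovered cortex 0 became 1 under 3 settings. The causes were not tested. Signal over background could not be read from RMA values.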

Other observations

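Some deposited values were exactly equal between arrays. Pim1 had the same value on control pool 2 and on deprived pools 2 and 3, and Trib1 on the 3 h and 24 h dishes numbered 2. Equal values on at least 1 pair of arrays occurred in 55% of genes in cortex and 35.7% in culture.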
